A study of Mus musculus with 12 samples.

Results

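The genes described here are Fkbp5, Tsc22d3, Klf9, Klf15, Mt1, Mt2 and Ddit4, 7 well-known targets of the glucocorticoid receptor that were taken by their symbols from the 20819 genes of the deposited table. All 7 had enough reads to be tested, as had 14558 genes in all. The samples were tubuloids, clusters of tubular epithelial cells grown in Matrigel from the kidney cortex of 4 wildtype mice, and every group shared that genotype and a treatment time of 12 h. The groups were myoglobin with 100 nM dexamethasone, myoglobin alone, and vehicle, with 4 libraries each. Myoglobin is the haem protein of muscle, and the series' design names it as the agent that injures the tubules. Its dose and the age of the mice are not given in the sources used here, and dexamethasone without myoglobin was not analysed here, so each effect of dexamethasone below is one on top of myoglobin. The labels number the libraries of each group from 1 to 4 without saying that a number is a mouse, so the p-values reflect no more than the spread among these libraries, which may be technical.

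Glucocorticoids cross the cell membrane and bind the glucocorticoid receptor (gene Nr3c1), which moves to the nucleus and binds DNA as a pair at inverted repeats, the glucocorticoid response elements, to switch genes on. Some of its targets feed back on the hormone itself: Fkbp5 encodes a co-chaperone that lowers the affinity of the receptor for its ligand. Other targets carry the response onward, among them the leucine-zipper protein of Tsc22d3 (also called GILZ, which restrains inflammatory transcription), the zinc-finger transcription factors Klf9 and Klf15, the metal-binding metallothioneins Mt1 and Mt2, and Ddit4 (also called REDD1, an inhibitor of the growth kinase complex mTORC1). Dexamethasone is a synthetic, potent ligand of the receptor, and tubular epithelium is a known glucocorticoid-responsive tissue.

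Adding dexamethasone to myoglobin raised 5 of the 7 genes, by amounts that differed between them. Fkbp5 stood highest with a 2.28-fold change, Klf15, Tsc22d3 and Klf9 lay between 1.53-fold and 1.32-fold, and Mt2 changed 1.22-fold. Mt1 and Ddit4 did not pass the test. Of all tested genes 6.98% passed in this comparison, 3.08% of them as higher and 3.9% as lower. Passing means an adjusted p under 0.05 in limma, with Benjamini-Hochberg adjustment over all 14558 genes, and only such genes are said to have risen or fallen. Values are reads per gene that the authors divided by a library factor and rounded, called normalised values here, and changes are log2 fold changes of the value plus 1, given ± SE.

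**Figure D1:**
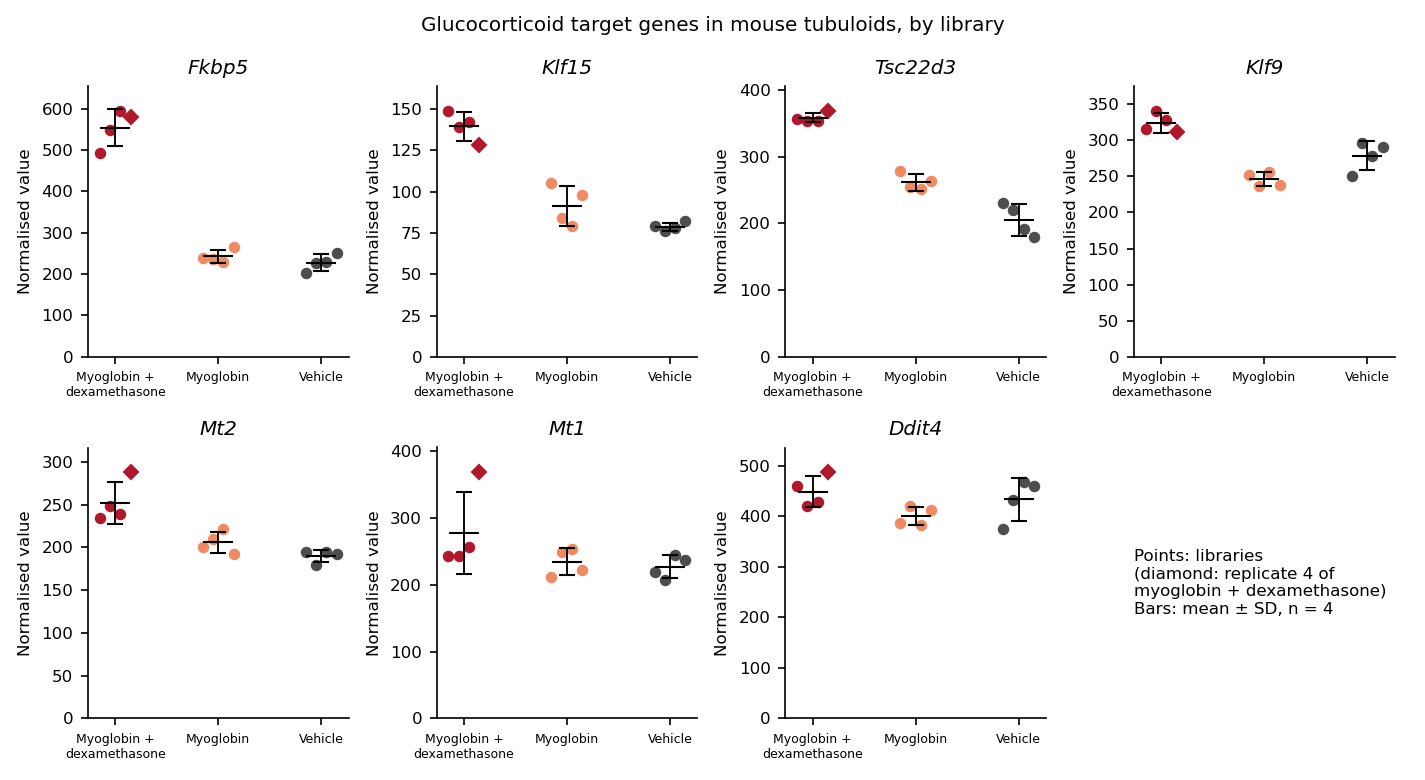
Normalised value of each gene (vertical axis, starting at 0) in every library of the 3 groups, with horizontal bars for the mean and whiskers for the SD (n = 4). For Fkbp5, Klf15, Tsc22d3, Klf9 and Mt2 the 4 libraries with myoglobin and dexamethasone lie above all 4 with myoglobin, while for Mt1 and Ddit4 the groups overlap; the diamond is replicate 4 with both agents, which has 369 for Mt1.

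Estimated reads in genes per library were 3.25 to 5.53 M in the group given both agents, 5.28 to 5.92 M after myoglobin and 5.51 to 5.87 M after vehicle. Replicate 4 with both agents stood apart at 3.25 M reads, with 2179 genes at 0 against 1051 to 1544 in the other 11 libraries, so results that rest on it are given with and without it. The labelled cell type was checked against fixed markers. All 6 markers of tubular epithelium were present, with a summed value of 7405 to 10274 with both agents, 6877 to 7310 with myoglobin and 7286 to 7528 with vehicle. The 10274 was replicate 4 with both agents, and the other 3 libraries of that group had 7405 to 7696. Of the 7 proximal tubule markers in the table, the transporter genes Slc34a1 and Slc5a2 were at 0 to 3 and at 1 to 7 in the libraries, the megalin gene Lrp2 was at 216 to 456, and the whole list summed to 529 to 647 with both agents, 564 to 697 with myoglobin and 414 to 515 with vehicle.

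The start regions of 3 of the genes are shown because these genes span the range of responses and because Mt1 and Mt2 are neighbours on chromosome 8. Each is the stretch of 250 bases before the start site in RefSeq (GRCm38.p6), read 5′ to 3′ on the gene's own strand. Capitals mark a relaxed glucocorticoid response element (GNACA, any 3 bases, then TGTNC) or the core of a metal response element (TGCACNC or TGCGCNC), searched on both strands, and the Fkbp5 stretch has neither.
Fkbp5: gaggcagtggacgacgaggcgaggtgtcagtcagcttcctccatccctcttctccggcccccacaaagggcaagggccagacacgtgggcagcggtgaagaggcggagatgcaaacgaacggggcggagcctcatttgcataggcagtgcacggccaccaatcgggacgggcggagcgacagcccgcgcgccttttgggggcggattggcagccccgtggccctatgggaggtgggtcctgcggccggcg
Mt1: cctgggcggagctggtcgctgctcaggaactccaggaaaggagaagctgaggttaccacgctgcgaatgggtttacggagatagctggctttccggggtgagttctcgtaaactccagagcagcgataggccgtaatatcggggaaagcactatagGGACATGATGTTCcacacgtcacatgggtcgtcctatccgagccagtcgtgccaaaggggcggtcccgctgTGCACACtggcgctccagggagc
Mt2: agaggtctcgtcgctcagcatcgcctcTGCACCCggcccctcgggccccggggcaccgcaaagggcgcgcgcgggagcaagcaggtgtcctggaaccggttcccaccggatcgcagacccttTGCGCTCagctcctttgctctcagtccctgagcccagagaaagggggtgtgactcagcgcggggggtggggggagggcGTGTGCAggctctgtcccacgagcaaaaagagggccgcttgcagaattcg
The Fkbp5 stretch lies at chr17:28486150-28486399 on the minus strand, the Mt1 stretch at chr8:94178839-94179088 and the Mt2 stretch at chr8:94172368-94172617, both on the plus strand. In the deposited table Fkbp5 reaches further upstream (chr17:28399094-28517527). Its stretch therefore lies inside the gene as given there, and the sequence before that other start was not searched. The strongest responder, Fkbp5, held no match to the full element (AGAACA, any 3 bases, then TGTTC), to the relaxed one or to the single site AGAACA within this window, but held 3 GC boxes (GGGCGG, present in 32.7% of all mouse windows) and 1 E-box (CACGTG, 6.02%). The single site is the first part of the full element. None of the 7 genes held the full element there, which is present in 0.0304% of 32851 mouse promoter windows of this length. Mt1 held 1 relaxed element, at 94 to 82 bases before its start, which 0.387% of all windows hold, and 1 metal core, which overlaps neither the element nor either of its GC boxes. Mt2 held 3 metal cores and no receptor element, and Ddit4 and Klf15 held 1 metal core each, against 21.4% of all windows with at least 1. The core of Klf15 overlaps one of its E-boxes. One of the 3 start regions of Tsc22d3 held a single site, as 16.1% of all windows do. Such a match describes letters in a short window. The bases between the Mt1 and Mt2 windows and their coding starts (chr8:94179311 and chr8:94172848) were not searched. As background, the receptor elements described for Fkbp5 in human cells lie in introns, and those described for the mouse metallothionein pair lie upstream of Mt2, outside these windows.

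Fkbp5 (ENSMUSG00000024222, chr17:28399094-28517527, mm10, minus strand) read 493, 548, 595 and 579 with myoglobin and dexamethasone, 238, 237, 230 and 265 with myoglobin, and 202, 227, 229 and 251 with vehicle. The lowest library with both agents was well above the highest of either other group, while the myoglobin and vehicle libraries overlapped. Its rise when dexamethasone was added to myoglobin was 1.19 ± 0.073 (limma adjusted p 1.53e-07, 95% interval 1.03 to 1.34). Between myoglobin and vehicle the difference was 0.10 ± 0.073 and did not pass (adjusted p 0.418). Leaving out replicate 4 with both agents gave 1.16 for the dexamethasone effect. The means were 553.75 ± 44.95, 242.5 ± 15.42 and 227.25 ± 20.04 with both agents, with myoglobin and with vehicle (SD, n = 4 each).

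Tsc22d3 (ENSMUSG00000031431, chrX:140539528-140600659, minus strand) read 357, 354, 354 and 369 with both agents, 279, 254, 251 and 263 with myoglobin, and 231, 220, 191 and 179 with vehicle. These formed 3 steps with no overlap between any pair of groups, and Tsc22d3 was the only one of the 7 genes of which that was true. Dexamethasone added to myoglobin raised it by 0.45 ± 0.072 (limma adjusted p 0.00135), and myoglobin raised it over vehicle by 0.36 ± 0.072 (adjusted p 0.00229). Both agents together against vehicle gave 0.81 ± 0.072, a 1.75-fold change. Of the 7 genes, it was thus the one that rose with the injuring agent alone.

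Klf9 (ENSMUSG00000033863, chr19:23141226-23168134, plus strand), a repressor-type factor also known from circadian regulation, read 315, 341, 328 and 311 with both agents, 252, 237, 256 and 238 with myoglobin, and 250, 296, 278 and 290 with vehicle. The libraries with both agents were above all others, and the myoglobin libraries were low, overlapping vehicle only through its replicate 1. Dexamethasone added to myoglobin raised it by 0.40 ± 0.059 (limma adjusted p 0.000842). Myoglobin alone lowered it, with a change of -0.18 ± 0.059 against vehicle and a limma adjusted p of 0.0473. That call was lost without 10 of the 12 libraries taken singly, namely vehicle replicates 2, 3 and 4, every myoglobin replicate, and replicates 1, 2 and 3 with both agents, with adjusted p-values of 0.0524 to 0.150. With both agents it was 1.16-fold above vehicle (0.22 ± 0.059, adjusted p 0.0119), the smallest change among the 5 genes that passed there, and the call was lost under upper-quartile scaling (adjusted p 0.0752) and under scaling to library totals (0.0588), and without the libraries numbered 1 (0.0507) or 3 (0.0740) in every group.

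Klf15 (ENSMUSG00000030087, chr6:90462576-90475238, plus strand), a regulator of amino acid and lipid metabolism, read 149, 139, 142 and 128 with both agents, 105, 84, 79 and 98 with myoglobin, and 79, 76, 78 and 82 with vehicle. The group with both agents was separate from the other groups, and the myoglobin libraries were spread from the vehicle level upward. Adding dexamethasone to myoglobin raised it by 0.61 ± 0.098 (limma adjusted p 0.00151, 95% interval 0.40 to 0.82), the second largest change of the 7 genes. Myoglobin against vehicle gave 0.21 ± 0.098 and did not pass (adjusted p 0.173), although it passed under quantile normalization (0.29, adjusted p 0.0393). Klf15 had the fewest reads of the 7, 72.8 to 147.2 estimated reads a library with both agents.

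The 2 metallothionein genes lie close together and encode small cysteine-rich proteins that bind zinc and copper. Their coding sequences (first GENCODE M21 transcript of each gene, each 183 bases) are shown because reads had to be told apart between them, and capitals mark the bases at which they differ.
Mt1: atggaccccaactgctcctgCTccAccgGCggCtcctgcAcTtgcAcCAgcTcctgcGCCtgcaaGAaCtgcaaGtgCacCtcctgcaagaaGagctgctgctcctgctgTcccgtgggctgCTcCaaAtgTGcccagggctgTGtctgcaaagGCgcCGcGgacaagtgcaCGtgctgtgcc
Mt2: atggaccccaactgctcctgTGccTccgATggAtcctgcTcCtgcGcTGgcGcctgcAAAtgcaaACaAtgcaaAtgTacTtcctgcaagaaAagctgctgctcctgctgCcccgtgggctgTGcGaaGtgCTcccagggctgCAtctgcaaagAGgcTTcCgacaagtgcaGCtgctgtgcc
They differ at 38 bases (79.2% identical), and the longest stretch that the 2 whole transcripts share is 20 bases, so a read of ordinary length can be placed on one or the other. Reads that match several places may have been treated in ways that are not given in the sources used here.

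Mt2 (ENSMUSG00000031762, chr8:94172664-94173568, plus strand) read 234, 248, 239 and 288 with both agents, 200, 210, 221 and 192 with myoglobin, and 194, 179, 195 and 192 with vehicle. Every library with both agents lay above every other library, and myoglobin and vehicle overlapped. Dexamethasone added to myoglobin raised it by 0.29 ± 0.071 (limma adjusted p 0.0228), and the effect without replicate 4 of that group was 0.22 (adjusted p 0.0326). The call was lost without myoglobin replicate 1 (0.28, adjusted p 0.0526), without myoglobin replicate 4 (0.26, 0.0816) and when the vehicle libraries were left out of the fit (0.29, 0.0555). It was also lost when any 1 number was left out of every group (adjusted p 0.0577 to 0.118). Against vehicle, both agents together raised Mt2 by 0.40 ± 0.071 (adjusted p 6.05e-04).

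Mt1 (ENSMUSG00000031765, chr8:94179082-94180327, plus strand) read 243, 243, 257 and 369 with both agents, 212, 250, 254 and 223 with myoglobin, and 220, 207, 245 and 237 with vehicle. Replicates 1 to 3 with both agents lay within or just above the range of the myoglobin libraries, and the mean of the group was set apart by replicate 4. The dexamethasone effect was 0.22 ± 0.11 (limma adjusted p 0.258) with that library and 0.08 ± 0.074 (adjusted p 0.568) without it, and myoglobin against vehicle gave 0.05 ± 0.11 (adjusted p 0.834). The difference of both agents from vehicle was 0.27 ± 0.11 and did not pass either (adjusted p 0.0880, and 0.225 without that library). The ratio of Mt1 to Mt2 within a library was 1.09 ± 0.13 with both agents, 1.14 ± 0.056 with myoglobin and 1.19 ± 0.059 with vehicle (SD, n = 4 each). A 2-sided exact permutation test gave p = 0.486 for both agents against myoglobin, 0.257 for myoglobin against vehicle and 0.200 for both agents against vehicle, where the smallest p that 4 against 4 libraries allow is 0.0286. A difference in response between the 2 metallothioneins was therefore not shown, although one passed and the other did not.

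Ddit4 (ENSMUSG00000020108, chr10:59949669-59951834, minus strand) read 459, 419, 428 and 487 with both agents, 386, 419, 383 and 413 with myoglobin, and 374, 432, 468 and 460 with vehicle. All 3 groups overlapped. Dexamethasone added to myoglobin gave 0.16 ± 0.068 (limma adjusted p 0.182), myoglobin against vehicle -0.11 ± 0.068 (adjusted p 0.305), and both agents against vehicle 0.05 ± 0.068 (adjusted p 0.609). The 95% interval of the dexamethasone effect reached from 1.01-fold to 1.24-fold, which lies below the whole interval of Fkbp5 (2.04-fold to 2.53-fold).

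**Figure D2:**
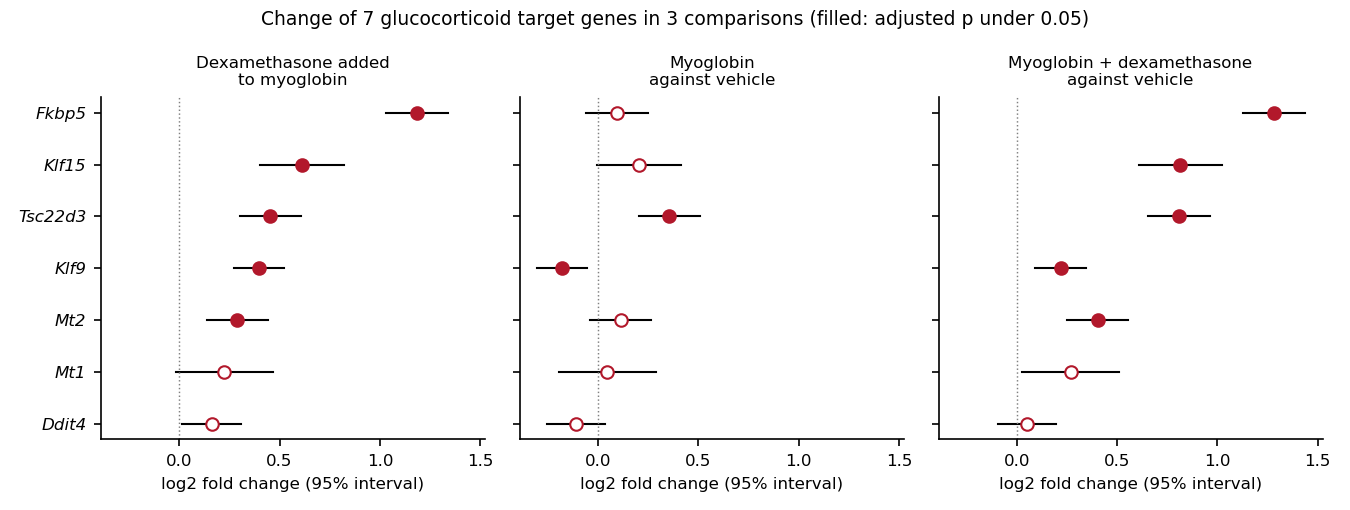
Log2 fold change with its 95% interval (horizontal axis) for each of the 7 genes (rows) in the 3 comparisons (panels), with filled points for an adjusted p under 0.05 and open points for the rest. The left panel runs from Fkbp5 at 1.19 to Ddit4 at 0.16, and in the middle panel the filled points are Tsc22d3 at 0.36 and Klf9 at -0.18.

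Myoglobin against vehicle therefore moved 2 of the 7 genes past the threshold, 1 in each direction, where 18.3% of all tested genes passed, 8.71% as higher and 9.62% as lower. With both agents against vehicle the genes that passed were Fkbp5, Klf15, Tsc22d3, Mt2 and Klf9, all 5 higher, where 28.6% of all tested genes passed, 13.9% as higher and 14.6% as lower. The groups did not overlap for 5 of the 7 genes when dexamethasone was added to myoglobin, for 1 of the 7 with myoglobin against vehicle and for 5 of the 7 with both agents against vehicle. Of all tested genes 13.2% did not overlap when dexamethasone was added (7.03% higher, 6.19% lower), 25% with myoglobin against vehicle (12.9% higher, 12.1% lower) and 28.6% with both agents against vehicle (15.3% higher, 13.3% lower). The median change of the 7 genes was 0.40, 0.10 and 0.40, against 0.0063, 0.0026 and 0.0017 over all tested genes. These comparisons share libraries, so their values are given side by side and are not independent of each other.

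The separation between strong and weak responders was tested for each pair of genes, as the difference between their 2 log2 values in a library, compared between the groups with myoglobin and dexamethasone and with myoglobin. The response of Fkbp5 exceeded that of Klf15 by 0.58, of Tsc22d3 by 0.73, of Klf9 by 0.79, of Mt2 by 0.90, of Mt1 by 0.96 and of Ddit4 by 1.02 on the log2 scale. In all 6 of these pairs and in the pair of Tsc22d3 and Ddit4 (0.29) the groups did not overlap. Each of these 7 pairs had the smallest p that the exact permutation test can give (0.0286, two-sided), and each was 0.0857 after Benjamini-Hochberg adjustment over the 21 pairs, so 0 of 21 passed while 7 of 21 had an unadjusted p under 0.05. Between Klf15, Tsc22d3 and Klf9 the differences were 0.06 to 0.21 in size, with overlap in each pair. The order of these 3 genes among themselves is thus within the spread between libraries.

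Length and read density set the 7 genes apart in another way. Per 1000 exonic bases, with all exons of a gene joined, the mean normalised level was highest for Mt2, at 429 ± 41.7 with both agents, 350 ± 21.3 with myoglobin and 323 ± 12.7 with vehicle (SD, n = 4 each). Ddit4 followed at 255 ± 17.7, 228 ± 10.5 and 247 ± 24.3 in the same groups, and Mt1 at 223 ± 49.0, 188 ± 16.4 and 182 ± 13.7. The ranges of Ddit4 and Mt1 overlapped with both agents. The 4 longer genes lay lower. Tsc22d3 had a level of 82.6 ± 1.65 with both agents, 60.3 ± 2.90 with myoglobin and 47.3 ± 5.6 with vehicle, and Klf9 one of 67.2 ± 2.82, 51.0 ± 2.01 and 57.8 ± 4.24. Klf9 thus stood below Tsc22d3 except with vehicle, where their libraries overlapped. Fkbp5 had 58.5 ± 4.75 with both agents, 25.6 ± 1.63 with myoglobin and 24.0 ± 2.12 with vehicle, and Klf15 49.98 ± 3.13, 32.8 ± 4.32 and 28.2 ± 0.896. By this joined length Fkbp5 had the lowest mean of the 7 genes with myoglobin and with vehicle, and overlapped Klf15 with both agents. The order depends on the length used. Over the bases of the first listed transcript of each gene, Fkbp5 lost that place. With myoglobin it had 68.4 ± 4.35 per 1000 bases, above Klf9 at 54.8 ± 2.16 and Klf15 at 38.6 ± 5.09. With vehicle it had 64.1 ± 5.66, which overlapped Klf9 at 62.1 ± 4.55 and lay above Klf15 at 33.2 ± 1.05. On that scale the mean of Mt1 came first and that of Mt2 next, at 449 and 423 over all 12 libraries, but their libraries overlapped in every group.

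The 3 of the 7 genes with the smallest dexamethasone effects were also the most densely covered. Mt2, Ddit4 and Mt1 held 0.360, 0.241 and 0.193 estimated reads per exonic base, at percentiles 98.9, 95.6 and 92.1 of all tested genes, whereas Fkbp5, Klf15, Klf9 and Tsc22d3 held 0.0344 to 0.0619. The median gene had 0.0583, the densest gene of all 0.689. In replicate 4 with both agents, which had the fewest reads, normalised values deviated from the other 3 libraries by a median of -0.21 for genes below 0.03 reads per base, 0.16 for genes with 0.1 to 0.3 and 0.40 for genes above 0.3. Mt1 deviated by 0.57 there, Mt2 by 0.26, Ddit4 by 0.16, Fkbp5 by 0.09 and Klf15 by -0.16. Before scaling, Mt1 had an estimated 209.8 reads in that library and 219.6 to 266.4 in the other 3, so its normalised value was high although its reads were the fewest of the group. The part of read density in the weak responses of Mt2, Mt1 and Ddit4 was not tested.

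**Figure D3:**
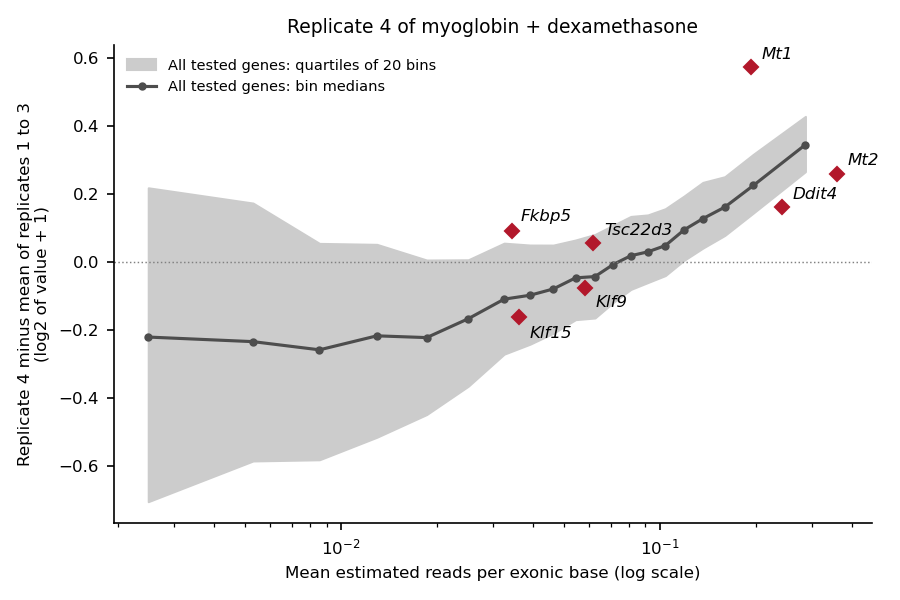
Deviation of replicate 4 with myoglobin and dexamethasone from the mean of the other 3 libraries of its group (vertical axis, log2 of value plus 1) against the mean estimated reads per exonic base (horizontal axis, log scale); the line and band are the medians and quartiles of all tested genes in 20 bins, the diamonds the 7 genes. The medians rise from -0.22 in the sparsest bin to 0.35 in the densest, and Mt1 lies above the band at 0.57.

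Markers of other cell types moved between the groups as well. The 7 distal and collecting duct markers summed to 4273 to 4756 with both agents, 3505 to 3874 with myoglobin and 3720 to 4441 with vehicle. Without replicate 4, at 4756, the group with both agents reached 4273 to 4318, which lies within the vehicle range. That sum hides opposite shifts. The calcium-binding protein gene Calb1 rose with dexamethasone added to myoglobin (0.30) and with myoglobin against vehicle (0.31), and the intercalated cell factor Foxi1 rose with dexamethasone (0.97). With myoglobin against vehicle, however, 4 of the 6 tested markers fell, the water channel gene Aqp2 (-2.58), Foxi1 (-2.51), the sodium chloride cotransporter gene Slc12a3 (-1.18) and the transcription factor gene Tfap2b (-0.18), and the median of the list was -0.68. Of all tested genes 9.62% fell in that comparison. Aqp2 and Foxi1 had values high enough for testing only through their vehicle libraries, so their falls give no support of their own. With myoglobin they read 2 to 7 and 6 to 8. The fall of Slc12a3 held in every alternative that tested the gene. That of Tfap2b was lost with no filter on low values and in 11 fits that left libraries out (limma adjusted p 0.0501 to 0.272). Among these fits were those without vehicle replicates 1, 2 or 3, any 1 myoglobin replicate or replicate 2 with both agents. For the dexamethasone effect, Calb1 lost its call without myoglobin replicates 2 or 4 or replicate 1 with both agents (0.0624 to 0.103) and kept it without replicate 4 with both agents, where its change was 0.21. The Calb1 call was also lost with only the 2 compared groups in the fit (0.0682) and without the libraries numbered 1, 2 or 3 in every group (0.0556 to 0.138). Foxi1 was low, at 14.25 ± 5.56 with both agents and 6.5 ± 1.0 with myoglobin (SD). Its call was lost with a pseudocount of 10 (0.53, adjusted p 0.0660) and without the libraries numbered 1, 2 or 3 in every group (0.126 to 0.182). It was also lost without myoglobin replicates 1, 2 or 4 or replicates 1 or 3 with both agents (0.0656 to 0.0938). Slc12a3 did not pass with dexamethasone (0.44, adjusted p 0.131) but did without replicate 4 with both agents (0.62, 0.00935). The 8 fibroblast and stroma markers summed to 179 to 273 with both agents, 295 to 345 with myoglobin and 406 to 478 with vehicle. Rgs5 carried much of that sum, with means of 127, 171.5 and 267.25 in these groups. Dcn (0.68) and Pdgfrb (0.16) had changes in the other direction with myoglobin against vehicle, and neither passed. The sum of 179 was replicate 4, and without it the range with both agents was 222 to 273. The collagen gene Col1a1 was at 1 to 4 in the libraries. The 6 immune markers in the table summed to 493 to 544, 436 to 477 and 543 to 613 in these groups, the 6 endothelial ones to 34 to 49, 30 to 62 and 57 to 63, the 5 podocyte ones to 612 to 723, 569 to 799 and 666 to 991, and the 2 of the loop of Henle to 72 to 102, 67 to 102 and 110 to 142. Most of the immune sum was Ptprc, with means of 423.25 with both agents, 342.25 with myoglobin and 447 with vehicle. No marker in the table was at 0 in every library. The part of these shifts in the changes of Fkbp5 and the other targets was not tested, and in such bulk samples fewer cells of a type and less RNA per cell cannot be told apart.

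The receptor gene itself, Nr3c1, read 300, 339, 356 and 317 with both agents, 381, 380, 405 and 392 with myoglobin, and 398, 397, 369 and 388 with vehicle. The libraries with both agents were the lowest of all. It fell when dexamethasone was added to myoglobin, with a change of -0.25 ± 0.054 (limma adjusted p 0.0108), opposite in direction to the 5 targets that rose. The call was lost when the libraries numbered 1 (adjusted p 0.0548) or 2 (0.0655) were left out of every group. Among 25 genes of the receptor, its chaperones, cofactors and hormone-converting enzymes, Nr3c1 was the only one that passed when dexamethasone was added to myoglobin, and 1 more passed as higher without replicate 4 of that group. In that comparison 3.08% of all tested genes passed as higher and 3.9% as lower. Myoglobin against vehicle gave 5 falls and 0 rises in that list in limma (6 and 1 at an unadjusted p under 0.05), 1 of them Hsd11b2, whose enzyme inactivates corticosterone, at 7.25 ± 2.75 with both agents, 6.25 ± 2.22 with myoglobin and 181.5 ± 37.4 with vehicle (SD, n = 4 each). Hsd11b2 had values high enough for testing only through its vehicle libraries. Another of the 5 falls, Hsd11b1, was at 6.5 ± 1.29 with both agents, 6.25 ± 2.63 with myoglobin and 14.25 ± 7.18 with vehicle (SD). Only its vehicle mean reached 10. The falls of Hsd11b2 and Hsd11b1 therefore give no support of their own to that count. Against vehicle, 8.71% of all tested genes passed as higher with myoglobin and 9.62% as lower. Ncoa3, a coactivator, fell as well (-0.20 ± 0.035, limma adjusted p 6.62e-04). Without replicate 4 with both agents, the counts of the list for myoglobin against vehicle were 2 rises and 6 falls.

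Close relatives of the 7 genes, that is other FK506-binding proteins, TSC22 proteins, Krüppel-like factors and Ddit4l, were examined beside them. Of 29 tested relatives 0 rose and 0 fell when dexamethasone was added to myoglobin, with a median change of 0.04, while 3 higher and 2 lower had an unadjusted p under 0.05 in limma. Only 3.08% of all tested genes passed as higher and 3.9% as lower there, so 0 of 29 does not set the relatives apart. The one with the smallest p was Klf7, at -0.21 ± 0.067 (limma adjusted p 0.0705), and leaving out vehicle replicate 4 (1 lower) or myoglobin replicate 4 (1 higher) gave a count of 1. With myoglobin against vehicle 3 relatives rose and 5 fell, where 8.71% of all tested genes passed as higher and 9.62% as lower, and the count was 2 and 3 without vehicle replicate 2. Klf7 rose by 0.73 ± 0.067 and Ddit4l, a relative of Ddit4 that also inhibits mTORC1, fell to 237.5 ± 10.7 with myoglobin, against 312 ± 10.8 with vehicle (-0.39 ± 0.052).

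Among 30 tested genes of a list of 36 other glucocorticoid targets, 10 rose and 0 fell in limma when dexamethasone was added to myoglobin, with a median change of 0.16 (16 higher and 1 lower at an unadjusted p under 0.05). Among all tested genes 3.08% passed as higher and 3.9% as lower. Scnn1a, which encodes part of the epithelial sodium channel, read 428, 493, 462 and 461 with both agents, 91, 121, 112 and 122 with myoglobin, and 117, 118, 143 and 142 with vehicle, a rise of 2.05 ± 0.097 whose 95% interval (1.84 to 2.25) lay above that of Fkbp5. Zbtb16, a transcriptional repressor, read 29, 29, 44 and 26 with both agents, 1, 1, 0 and 0 with myoglobin, and 1, 0, 0 and 0 with vehicle. Zbtb16 reached the value of 10 needed for testing only in the libraries with both agents, so its call (limma adjusted p 7.87e-06) gives no support of its own. The size of its change depends on the pseudocount because it was all but absent without dexamethasone. Per1, a clock gene, rose by 0.71 ± 0.065 (adjusted p 1.17e-05). The remaining 7 that rose were Sgk1, Hif3a, Glul, Acsl1, Bcl6, Zfp36 and Foxo3, and the list held 5 to 15 rises and 0 to 1 falls over the alternatives tried.

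**Figure D4:**
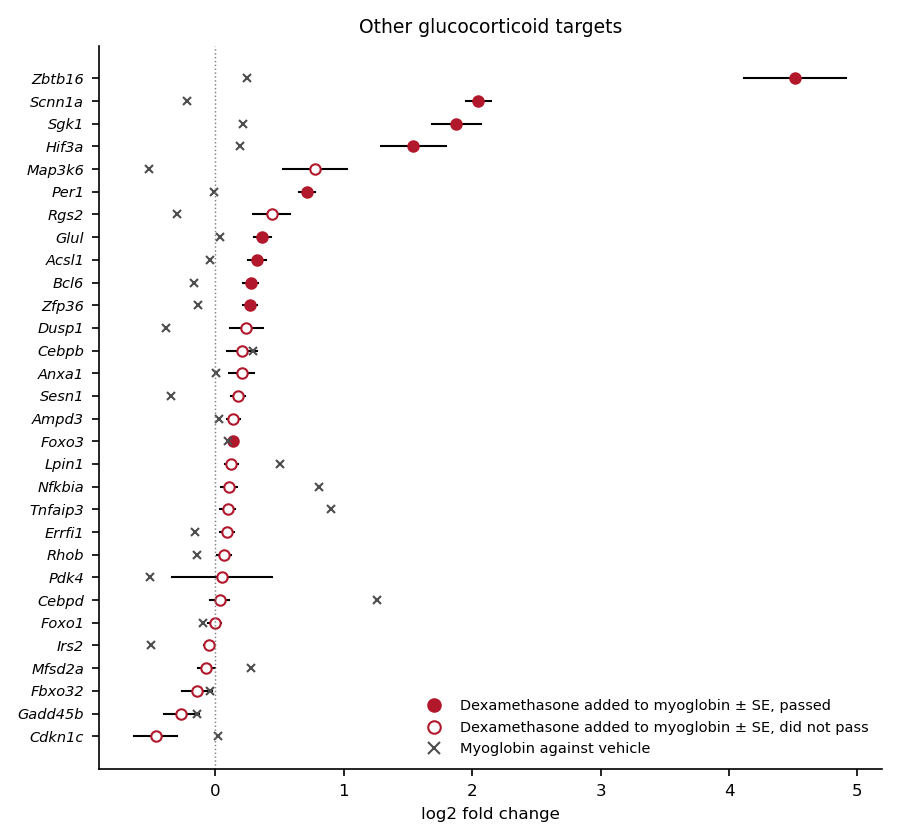
Log2 fold change ± SE (horizontal axis) of 30 other glucocorticoid targets (rows, ordered by the change) when dexamethasone was added to myoglobin, filled where the adjusted p was under 0.05, with crosses for myoglobin against vehicle. Zbtb16, whose value depends on the pseudocount, and Scnn1a at 2.05 lead the 10 filled points, while Cebpd and Tnfaip3 have their crosses far to the right at 1.26 and 0.90 and their circles near 0.

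With myoglobin against vehicle 5 of the 30 rose and 4 fell, beside 8.71% higher and 9.62% lower among all tested genes. Cebpd, a transcription factor of the acute-phase response, was at 361 ± 33.3 with both agents, 352 ± 9.61 with myoglobin and 147 ± 13.7 with vehicle (SD, n = 4 each), a rise of 1.26 ± 0.072 with myoglobin and a difference of 0.03 ± 0.072 (adjusted p 0.830) when dexamethasone was added. Tnfaip3, an inhibitor of NF-kB signalling, rose by 0.90 ± 0.057 with myoglobin and differed by 0.09 ± 0.057 (adjusted p 0.349) with dexamethasone. Tsc22d3 was unlike both, since it passed in each of these comparisons.

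Genes that share a pathway with single targets gave further context. Beside Mt1 and Mt2, 20 genes of zinc transport and metal or oxidant response were tested: 2 rose when dexamethasone was added to myoglobin, Gclc (0.26 ± 0.057), a subunit of the enzyme that makes glutathione's precursor, and the zinc importer Slc39a14 (0.22 ± 0.055, limma adjusted p 0.0259). The share of all tested genes that rose there was 3.08%. Gclc was lost without the libraries numbered 2 in every group (limma adjusted p 0.0767). Slc39a14 was lost in 11 of the alternatives, among them without myoglobin replicates 1, 2 or 3 and without replicates 2 or 3 with both agents, at adjusted p-values of 0.0622 to 0.0805. Myoglobin raised 8 of the 20 over vehicle and lowered 0 in limma (9 and 0 at an unadjusted p under 0.05), with the zinc exporter Slc30a2 at 837 ± 57.6 with both agents, 760.5 ± 66.6 with myoglobin and 148 ± 10.1 with vehicle, and haem oxygenase Hmox1 at 495 ± 38.2, 460 ± 13.7 and 113 ± 7.72 in these groups (SD, n = 4 each). With myoglobin against vehicle 8.71% of all tested genes passed as higher and 9.62% as lower. Mt1 and Mt2 did not pass in that comparison, at 0.05 and 0.11.

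Beside Ddit4, 26 genes of the amino acid stress factor ATF4, of hypoxia and of mTORC1 control were tested. Of these, 3 rose when dexamethasone was added to myoglobin: Castor2 (0.73 ± 0.057), of the arginine-sensor family, Txnip (0.29 ± 0.041), a brake on glucose uptake, and the mTORC1 inhibitor Sesn2 (0.19 ± 0.045, limma adjusted p 0.0201). The share of all tested genes that rose with dexamethasone was 3.08%. Castor2, Txnip and Sesn2 all fell with myoglobin against vehicle (-0.42, -0.38 and -0.17). Ddit4 had the same pair of signs, 0.16 and -0.11, but passed neither test. Both comparisons use the same myoglobin libraries, so opposite signs in them are not independent results. The Sesn2 call was lost without myoglobin replicates 2, 3 or 4 and without replicate 3 with both agents, at adjusted p-values of 0.0511 to 0.0703, and its fall with myoglobin without vehicle replicate 3 (0.0570). Both its rise and its fall were lost without the libraries numbered 2 or 3 in every group (0.0632 to 0.161), and the rise without those numbered 4 (0.0707). The stress genes Atf5 (0.68 ± 0.058) and Chac1 (1.81 ± 0.16), by contrast, rose with myoglobin and did not pass with dexamethasone (0.07 and -0.28). In the whole list, 7 of the 26 rose and 5 fell with myoglobin against vehicle. Of all tested genes 8.71% passed there as higher and 9.62% as lower. Beside Castor2, Txnip and Sesn2, the falls were the stress gene Atf3 (-0.79 ± 0.12) and Ndrg1 (-0.45 ± 0.058).

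Beside Klf15, 12 of 18 genes of amino acid and lipid breakdown, many of them described as KLF15 targets, were tested. Dexamethasone added to myoglobin raised 3, Aass (0.61 ± 0.12), an enzyme of lysine breakdown, glutamine synthetase Glul (0.36 ± 0.066) and the fatty acid transfer enzyme Cpt1a (0.15 ± 0.037), and lowered 0 (8 and 0 at an unadjusted p under 0.05 in limma). Among all tested genes 3.08% passed as higher and 3.9% as lower. Glul, which is also counted among the other glucocorticoid targets, read 1088, 1056, 1052 and 1356 with both agents. The highest of these was replicate 4. With myoglobin Glul read 888, 855, 930 and 843. The Aass call was lost without the libraries numbered 1 (limma adjusted p 0.0584) or 3 (0.0749) in every group. Over the alternatives tried, the list held 1 to 4 rises. The Cpt1a call (limma adjusted p 0.0232) was lost without myoglobin replicates 1, 2 or 4 and without replicate 2 with both agents, at adjusted p-values of 0.0527 to 0.0685. It was also lost under scaling to library totals (0.0597), with only the 2 compared groups in the fit (0.0709) and without any 1 number in every group (0.0559 to 0.164). Myoglobin against vehicle raised 1, Gpt2 (0.21 ± 0.056), and lowered 2, Cpt1a (-0.51 ± 0.037) and Bckdha, beside 8.71% higher and 9.62% lower among all tested genes. The Gpt2 call was lost without vehicle replicate 4 or myoglobin replicates 3 or 4, at adjusted p-values of 0.0503 to 0.0537, and without myoglobin replicate 4 the count was 0 rises and 1 fall. Gpt2 was also lost under upper-quartile scaling (0.0956), under library totals (0.0543) and without the libraries numbered 2 (0.106) or 3 (0.142) in every group.

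Across the 12 libraries the patterns of the 7 genes resembled one another to different degrees. These correlations describe libraries that share treatments and, in 1 case, a low depth. Fkbp5 and Klf15 had a Pearson r of 0.933, Tsc22d3 and Klf15 0.910, Fkbp5 and Mt2 0.862 and Fkbp5 and Tsc22d3 0.858. Next came Mt1 and Mt2 at 0.842, Tsc22d3 and Mt2 at 0.832 and Fkbp5 and Klf9 at 0.807. Tsc22d3 and Klf9, which differ in their response to myoglobin, had 0.496. Ddit4 had 0.0829 with Tsc22d3 and 0.467 with Fkbp5. Of all other tested genes with a mean of at least 30, those most like Fkbp5 were the clock genes Per1 (0.980) and Per2 (0.977) and the sulfotransferase gene Sult1d1 (0.977). Those most like Klf9 were Castor2 (0.930), Ldhd (0.921), a mitochondrial D-lactate dehydrogenase, and Cwh43 (0.911). Those most like Tsc22d3 were Gosr2 (0.973), Pafah2 (0.967) and Selenbp1 (0.964), and those most like Klf15 were Pex11a (0.966), Panct2 (0.955) and Sult1a1 (0.952). The closest to Mt1 were Glud1 (0.989), Erp29 (0.979) and Micos13 (0.968), which deviated in replicate 4 with both agents by 0.27, 0.43 and 0.36 and of which none passed when dexamethasone was added. Ndufs3 (0.986), Dlat (0.967) and Hsd17b4 (0.964) were closest to Mt2, with deviations of 0.17, 0.15 and 0.28 in that library, and Slc25a35 (0.881), Ripk4 (0.865) and Slc27a4 (0.862) to Ddit4.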

How the data were processed

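Messenger RNA of 12 libraries was sequenced. Per the submitters' processing notes, which give no roles, the tools were featureCounts 2.0.3, STAR 2.7.10a, Trimmomatic 0.39, Picard 2.27.4 and DESeq2 1.36.0, and the genome build was mm10. The deposited unit is a normalised score per gene: whole numbers whose steps show reads scaled by 1 factor a library and rounded. Because these are not counts, a planned count test gave way to limma-trend (limma 3.58.1, R 4.3.3) on log2 of the score plus 1, with all 3 groups in 1 fit. Testing was limited to the 14558 genes that reached 10 in 4 or more libraries. Tests were two-sided, with Benjamini-Hochberg adjustment within each comparison. Reads before scaling were estimated as score times factor; their number and the 4 libraries per group limit the precision. Exonic lengths came from GENCODE M21, where 98.9% of the genes have the same coordinates. The fit was tested on simulated data. Pairs and the metallothionein ratio were compared by exact permutation. Named genes were all 7 targets, Nr3c1, per list the 3 called genes with the smallest p for dexamethasone (1 if none) and 2 for myoglobin, and per target the 3 most correlated genes, leaving out predicted genes; other names were chosen after their values were seen. The 7 targets, the lists and the rule were chosen with earlier results of these data known. Alternatives changed the pseudocount, filter, scaling, replicate block, spread estimate, groups in the fit and libraries. Plots and tables used matplotlib 3.10.9, scipy 1.17.1, pandas 2.3.3 and numpy 2.4.6 under Python 3.11.15.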

Additional observations from a re-analysis of the deposited data

Results flagged for a closer look

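Mt1 in replicate 4 with myoglobin and dexamethasone stood at 369, far from the 243, 243 and 257 of the other 3 libraries of its group: the gap to the nearest was 0.889 of the group's range, above Dixon's critical value of 0.829 for 4 samples. It was the 1 such case among 21 groups examined (7 genes in 3 treatments), and chance alone marks about 1 in 20 groups. The library has 3.25 M estimated reads, the fewest of all, and the part of that depth in the value was not tested.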

How the results depend on the processing

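The dexamethasone calls of Fkbp5, Tsc22d3, Klf9 and Klf15 held in all 26 alternatives, with changes of 1.13 to 1.24, 0.42 to 0.49, 0.35 to 0.42 and 0.53 to 0.69, and no change of the 7 genes that passed reversed. The number of targets called when dexamethasone was added was 4 to 5 when libraries were left out. For myoglobin against vehicle the 2 calls became 1 with no filter on low values, where Klf9 had an adjusted p of 0.0659, and 1 to 2 when libraries were left out. For both agents against vehicle it was 4 to 5 when libraries were left out. Over all genes, the 1016 calls for dexamethasone became 1788 with the replicate block and 645 with only the 2 groups compared, and 314 to 1279 when libraries were left out. The 2669 calls for myoglobin ranged from 1393 to 3789 and the 4161 for both agents from 2404 to 4226 when libraries were left out. Upper-quartile scaling turned the myoglobin split from 1268 higher and 1401 lower to 941 and 1797, and that for both agents from 2029 and 2132 to 1347 and 2935 (1565 and 2648 by library totals). Same-numbered libraries deviated together weakly (correlations of -0.0151 to 0.379 for dexamethasone, 0.0953 to 0.456 for myoglobin and 0.0224 to 0.289 for both), and the best match was the own number in 3, 4 and 3 of 4. With the number as a replicate block, Mt1 passed for both agents against vehicle (0.27, adjusted p 0.0378) and no other target changed its call. For the other named genes, 2025 of the repeated values kept their call, 81 lost it, 17 gained one and 0 reversed; the causes were not tested. The pair tests were not repeated with libraries left out or paired, since those designs cannot reach the threshold.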
